A study of Mus musculus with 7 samples.

Results

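Interferon response and antigen presentation genes were described in mouse primary myoblasts before and after differentiation. The group was a list of 33 gene symbols, each matched exactly to the symbol column of the deposited expression table. Of the 33 symbols, 32 had a row among the 37975 genes of the table, and Ifi27 had none under that symbol. The 32 rows fell into 4 roles: 6 signalling and transcription factors, 3 RNA sensors, 17 interferon-induced effectors and modifiers, and 6 genes of antigen presentation. The authors had tested 24 of them, out of 15966 tested genes in all, and marked 7 as untested (Dhx58, Usp18, Mx1, Mx2, Gbp2, Gbp3 and Parp14). The test was listed as failed for Trim25.

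The series held 7 samples, 1 in each group. The RNA samples used here were growing primary myoblasts and myotubes after 48 hours in medium with 5% horse serum (2-day myotubes), both carrying an empty retroviral vector and both grown from satellite cells, the muscle stem cells, which had been isolated by flow sorting at a mouse age of 4 to 6 weeks. MyoD ChIP-seq peaks came from 2-day myotubes without a stated vector, and 4 ChIP samples for histones are not used here. The sources used here do not give strain or sex of the mice. The MyoD sample is labelled as taken from an earlier deposit, and the antibodies listed in the labels' protocol include none against MyoD. Both RNA samples therefore shared the vector, and no RNA sample without a vector or with added interferon was among those analysed.

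Type I interferons signal through a receptor that activates the kinases Jak1 and Tyk2 and the factor Stat2, which acts with Irf9 at the interferon-stimulated response element (ISRE) in promoters. Interferon gamma acts mainly through the gamma-activated site (GAS) and through Irf1. The induced genes restrict viruses and raise the presentation of peptides on major histocompatibility complex (MHC) class I molecules, which muscle fibres normally display at low levels.

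Expression is given as FPKM (mapped fragments scaled by transcript length and library size), so levels of different genes are set on a scale per length. Each gene had 1 value per condition, so no difference had a replicate check here and no spread between samples could be given. Fold changes, q-values (p-values that the authors adjusted over tested genes) and calls are those of the authors' deposited table. A gene is called where the authors marked it significant, and the standard error (SE) is that implied by their test statistic. The MyoD list held 10756 peaks from 4049890 unique ChIP tags and 4371189 unique control tags. The sources used here do not give read totals of the RNA libraries, so their depth was unknown.

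The labelled cell types were checked first. All 6 myotube markers, among them Myog and Myh3, were higher by the calls of the authors' deposited table. Their FPKM summed to 1313 in myoblasts and 21326 in myotubes. Of 6 myoblast markers, Pax7 and Myf5 were lower and Des higher by the same calls, while Myod1, Cdh15 and Itga7 were not called. These 6 summed to 1736 FPKM in myoblasts and 3417 in myotubes. Most of the myotube sum was Des, at 539 and 2785 FPKM, while Myod1 was at 895 and 293. Values in myotubes were lower for Pax7, Myf5 and Myod1 and higher for Des, Cdh15 and Itga7. Of 11 immune markers, 6 were listed at 0 in myoblasts (among them Ptprc, Csf1r, Emr1 and Lyz2). The 11 summed to 32.9 FPKM in myoblasts and 27.9 in myotubes. Most of that sum was Itgam, at 20.6 and 24.3 FPKM, and Cd68, at 11.0 and 2.80 FPKM. The sums of 5 fibroblast markers were 39.6 and 9.12 FPKM, mostly Tcf7l2 (31.7 and 7.65), and those of 4 endothelial markers were 4.71 and 0.431. By the same calls the immune markers Cd68 and Cd14 were lower, with Cd14 at 1.00 and 0 FPKM. The fibroblast markers Thy1 and Tcf7l2 and the endothelial marker Pecam1 were also called lower. No immune, fibroblast or endothelial marker was called higher. The part of cells with immune, fibroblast or endothelial markers in the falls described next was not tested.

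Promoter sequence was examined in the 250 bases before each RefSeq start site (build GRCm38.p6), of which the table held 30 windows for 25 of the members. The ISRE was searched as GAAANNGAAA, which reads TTTCNNTTTC on the other strand. It was found in 10 of the 30 member windows (33.3%) and in 978 of all 32851 windows (2.98%). The GAS letters TTCNNNGAA, the same on both strands, were in 4 member windows (13.3%) and in 7.02% of all windows. E-boxes, the sites of MyoD and related factors, were searched as CANNTG and were in 19 member windows (63.3%), near the share of all windows (66.2%). The form CAGCTG, which is counted among the E-boxes, was in 5 member windows (16.7%) and in 13.0% of all. A match is a run of letters and not a measured binding site.

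The following promoters are shown because they belong to 4 effectors with ISRE letters, of which Ifit1 was called lower and the others were not called, to the transcription factor gene Irf1, and to the most reduced transporter gene. Capitals mark ISRE letters in the promoters of Ifit1, Ifit3, Isg15 and Rsad2. The windows lie at chr19:34640639-34640888 (Ifit1, plus strand), chr19:34583279-34583528 (Ifit3, plus strand), chr4:156200819-156201068 (Isg15, minus strand) and chr12:26456453-26456702 (Rsad2, minus strand) of GRCm38.p6. Ifit1 and Ifit3 each held a pair of separate matches, Isg15 held 3 overlapping matches from base -78 to base -57, and Rsad2 held 1 from base -120 to base -111, counted from the start site.
Ifit1: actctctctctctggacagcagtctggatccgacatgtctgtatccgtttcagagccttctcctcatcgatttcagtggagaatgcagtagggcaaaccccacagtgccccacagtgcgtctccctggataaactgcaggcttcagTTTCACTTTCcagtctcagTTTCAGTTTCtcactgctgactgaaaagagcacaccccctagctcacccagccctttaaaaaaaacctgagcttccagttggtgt
Ifit3: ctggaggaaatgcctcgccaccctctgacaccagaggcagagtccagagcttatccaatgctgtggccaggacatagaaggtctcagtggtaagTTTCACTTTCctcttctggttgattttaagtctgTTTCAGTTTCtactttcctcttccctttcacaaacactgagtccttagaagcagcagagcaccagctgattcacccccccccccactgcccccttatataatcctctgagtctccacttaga
Isg15: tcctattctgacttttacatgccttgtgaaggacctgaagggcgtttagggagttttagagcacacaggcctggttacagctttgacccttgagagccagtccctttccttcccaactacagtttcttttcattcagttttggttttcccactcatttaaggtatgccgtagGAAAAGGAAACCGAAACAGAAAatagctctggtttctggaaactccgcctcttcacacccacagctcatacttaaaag
Rsad2: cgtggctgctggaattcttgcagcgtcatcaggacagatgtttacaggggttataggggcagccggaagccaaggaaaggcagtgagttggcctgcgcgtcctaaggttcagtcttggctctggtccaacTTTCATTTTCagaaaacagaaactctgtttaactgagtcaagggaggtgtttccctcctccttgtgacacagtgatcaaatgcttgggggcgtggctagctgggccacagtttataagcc

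Irf1, whose product is induced by interferon gamma and activates MHC class I pathway genes, held GAS letters from base -90 to base -82, in capitals in the window at chr11:53769764-53770013 (plus strand). Tap1 and the immunoproteasome gene Psmb9 are transcribed away from each other, and 225 bases lie between their RefSeq starts at chr17:34187331-34187555, printed on the Tap1 strand with its 2 E-boxes in capitals. The ISRE and GAS letters, as searched, were not in this stretch.
Irf1: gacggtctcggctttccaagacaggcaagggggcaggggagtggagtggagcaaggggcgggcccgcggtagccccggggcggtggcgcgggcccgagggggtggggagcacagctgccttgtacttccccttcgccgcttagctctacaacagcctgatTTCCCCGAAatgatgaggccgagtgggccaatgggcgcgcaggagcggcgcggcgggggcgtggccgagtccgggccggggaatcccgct
Tap1: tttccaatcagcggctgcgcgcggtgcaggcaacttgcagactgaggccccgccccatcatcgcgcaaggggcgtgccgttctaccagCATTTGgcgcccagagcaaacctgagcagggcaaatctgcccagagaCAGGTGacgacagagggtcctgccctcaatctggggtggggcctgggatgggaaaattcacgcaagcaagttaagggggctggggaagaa

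**Figure D1:**
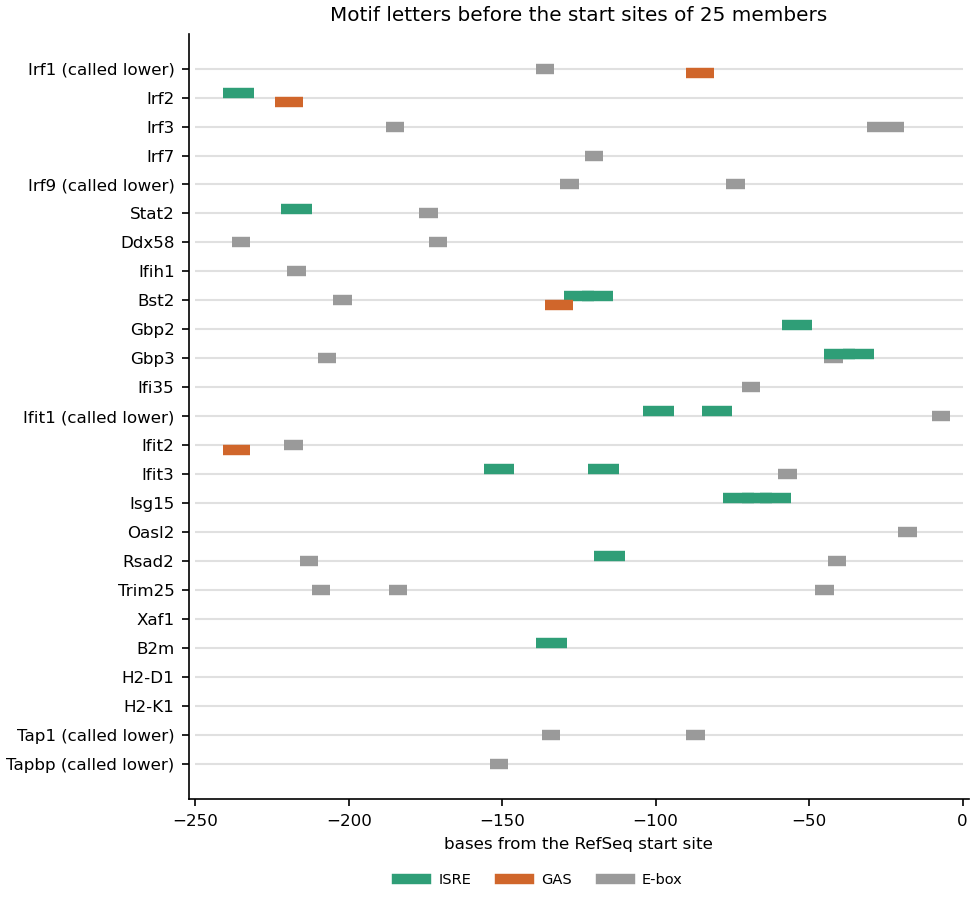
Matches to the ISRE (green), GAS (orange) and E-box (grey) letters in the 250 bases before the RefSeq start sites of the 25 members with a promoter entry. The horizontal axis gives bases from the start site, and each row is a gene, with all of its windows overlaid. ISRE letters lie in 10 genes, among which Ifit1 alone was called lower, while Irf9, Tap1 and Tapbp show E-boxes only.

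In growing myoblasts the members spanned from 0 to 213 FPKM. Of the 32 rows, 8 were below 1 FPKM, 13 lay from 1 to 10, 9 from 10 to 100 and 2 above 100. The 24 tested members had a median of 7.61 FPKM, against 17.9 over all tested genes, and in myotubes 5.42 against 12.7. Antigen presentation genes were the most abundant of the 4 roles: their median was 58.1 FPKM in myoblasts, beside 7.49 for signalling and transcription factors, 4.88 for tested effectors and 2.54 for the 2 tested sensors. The order of levels has no spread over samples behind it, so neighbours in it cannot be told apart beyond error.

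Tap2, which forms the peptide transporter of the endoplasmic reticulum together with Tap1, was the highest member in myoblasts at 213 FPKM, above 93.8% of tested genes. B2m, the invariant light chain of MHC class I, followed at 183 FPKM. Tap1 stood at 67.9, Tapbp (tapasin, which holds empty class I molecules at the transporter) at 48.2, the class I heavy chain H2-K1 at 33.0 and the heavy chain H2-D1 at 11.8. Outside antigen presentation the highest were Irf1 at 24.95, Irf3 at 24.4 and Trim25, a ubiquitin ligase that acts with Ddx58, at 20.9 FPKM.

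The 10 tested effector members ranged from 0.535 to 15.0 FPKM in growing myoblasts, below the median of all tested genes. Isg15, a ubiquitin-like modifier, was at 10.1 FPKM and Bst2, which tethers virions to the cell surface, at 9.44. Mx1 and Mx2, GTPases that block viral nucleocapsids, were listed at 0 in myoblasts and at 0.0413 and 0.849 FPKM in myotubes. Usp18, the protease that removes Isg15, was at 0.0583 and 0.189 FPKM. The guanylate-binding protein genes Gbp2 (0.316 and 0.171) and Gbp3 (0.823 and 0.643), Parp14 (0.203 and 0.320) and the sensor Dhx58 (0.815 in both) were also below 1 FPKM in both conditions. The 7 members below 1 FPKM in both conditions are the 7 that were not tested.

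**Figure D2:**
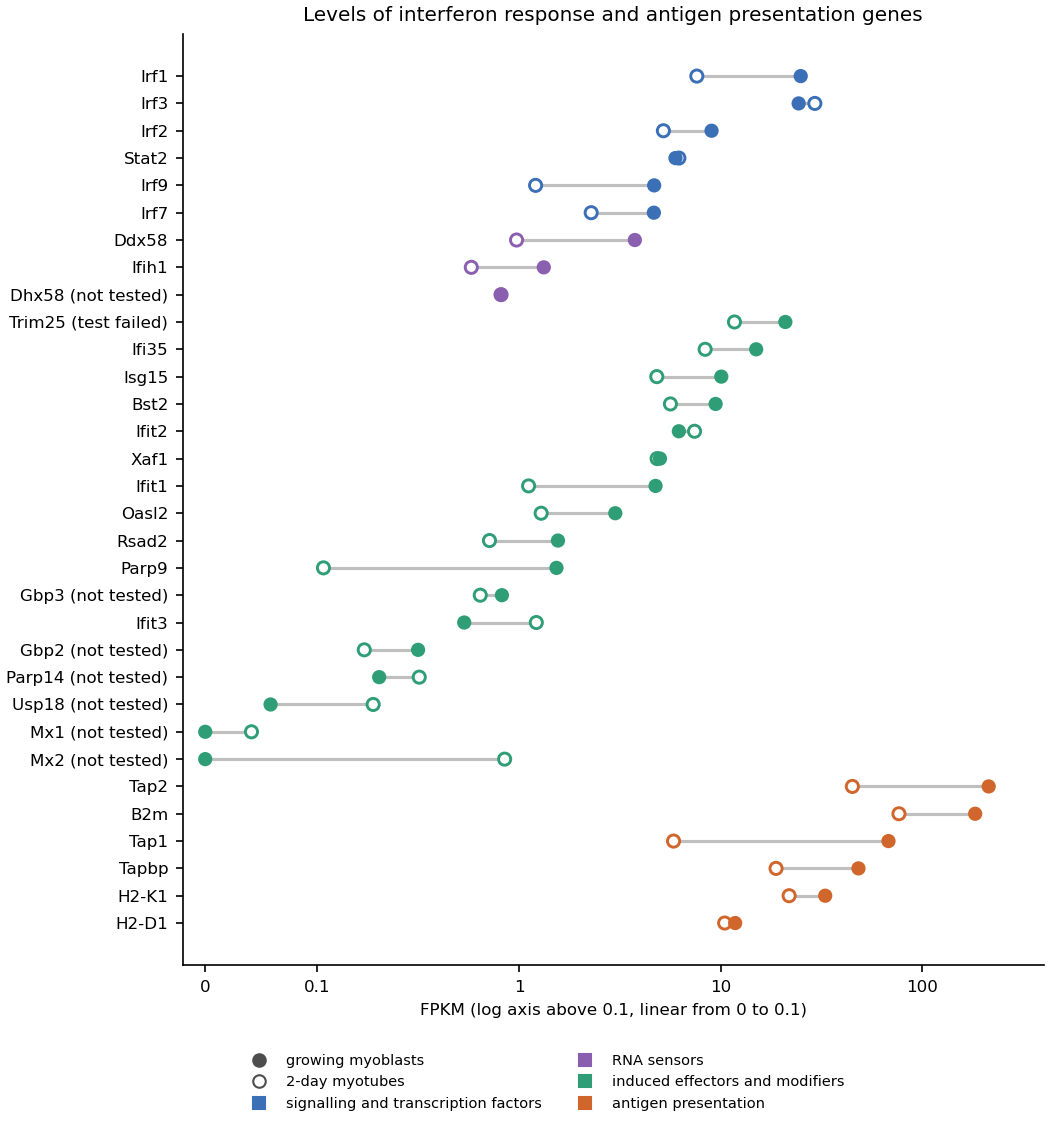
FPKM of the 32 members (horizontal axis, logarithmic above 0.1) in growing myoblasts (filled points) and 2-day myotubes (open points), coloured by role. Each point is 1 deposited value. Antigen presentation genes reach 213 FPKM in myoblasts, and the untested effectors lie below 1 FPKM in both conditions.

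The comparison of myotubes with myoblasts described how these genes moved during differentiation. By the calls of the authors' deposited table, 7 of 24 tested members fell, none rose and 17 were not called. Over all tested genes 23.9% were called, 17.3% lower and 6.52% higher. The members called lower were the peptide transporter genes Tap1 and Tap2, Tapbp, the transcription factor genes Irf1 and Irf9, the effector gene Ifit1 and Parp9. At an unadjusted p of at most 0.05 in the authors' deposited table, 8 of the 24 tested members were lower and 0 higher. This count was not made over all tested genes, and the shares above are for calls, so it has no background here. Among untested members, Mx2, listed at 0 and 0.849 FPKM, had an unadjusted p of 0.00518 in the authors' deposited table. Values were lower in myotubes for 20 of the 24 members and higher for 4. Over all 15966 tested genes, 10684 had lower values and 5282 had higher values. The median log2 ratio of FPKM + 1 over the 21 tested members with a mean of at least 1 FPKM was -0.79, beside -0.37 over all genes so filtered. Because the sample is bulk RNA, fewer cells of a type and less RNA per cell cannot be told apart.

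The whole table was shifted toward lower values, with a median log2 fold change of -0.41 over the 15416 tested genes above 0 in both conditions. After the fold changes were centred on that median, 5 of the 24 members were lower (Irf1, Parp9, Tap1, Tap2 and Tapbp) and none higher, where 10.2% of all tested genes were lower and 9.94% higher. Irf9 and Ifit1 lost their call, with q = 0.103 and 0.105 (Benjamini-Hochberg over all tested genes). Of the 7 members called lower, 5 share their locus in the table with another tested gene, and the way reads were divided there was not tested. Irf1 and Ifit1 were the 2 called lower among the 16 tested members that do not (12.5%), beside 17.8% of all tested genes without a shared locus.

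**Figure D3:**
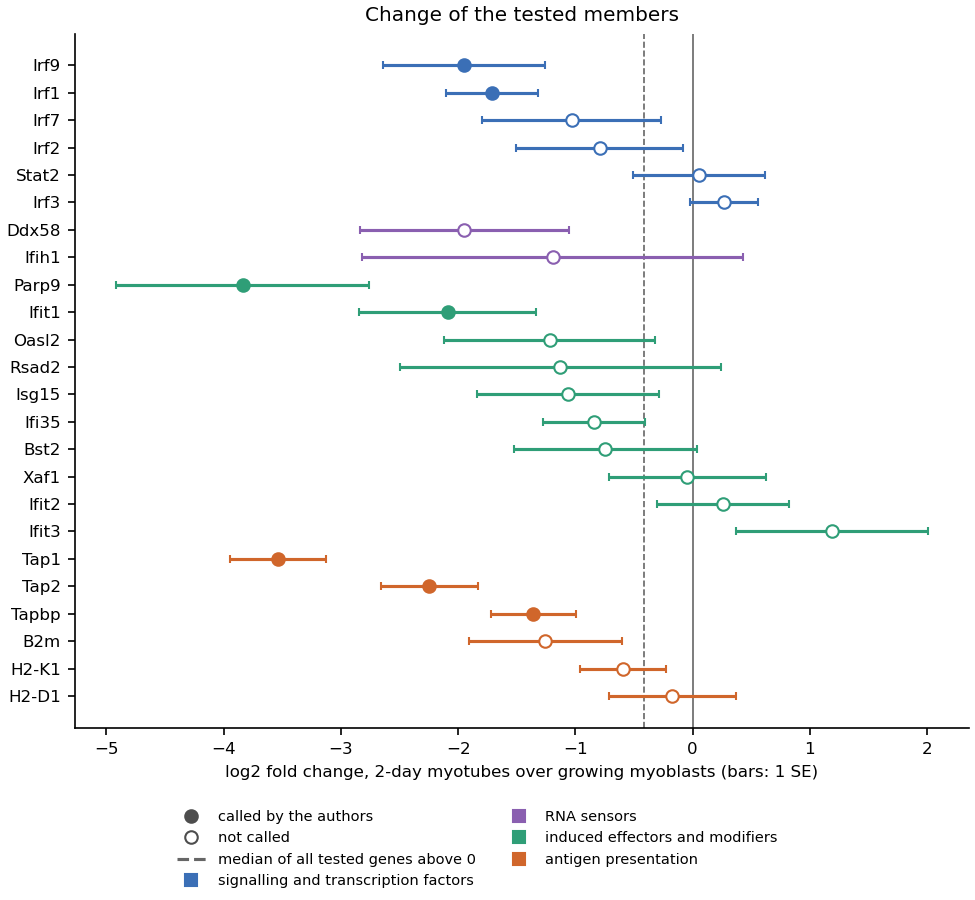
Log2 fold change of the 24 tested members, 2-day myotubes over growing myoblasts, with bars of 1 SE implied by the authors' test, ordered within each role. Filled points were called by the authors and the dashed line is the median of all tested genes above 0 in both conditions (-0.41). The 7 called members all lie to the left of that line, from -3.84 for Parp9 to -1.36 for Tapbp.

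Among signalling and transcription factors 2 of 6 fell, and 1 of 6 was lower after centring, beside 17.3% and 10.2% of all tested genes. Irf1 (ENSMUSG00000018899, mm9 chromosome 11 from 53583516 to 53591876) was at 24.95 FPKM in growing myoblasts and 7.62 in myotubes. In the authors' deposited table this was a log2 fold change of -1.71 (SE 0.39, q = 0.000178), and it stayed called after centring. Irf9, the DNA-binding partner of Stat2 (ENSMUSG00000002325, chromosome 14 from 56210545 to 56228867), was at 4.68 FPKM in growing myoblasts and 1.21 in myotubes. The authors' deposited table gave it a log2 fold change of -1.95 (SE 0.69, q = 0.0240). Rnf31, a ubiquitin ligase gene that shares the Irf9 locus, was at 23.05 and 6.97 FPKM and was called lower in the same deposited table, and how far reads of the pair were kept apart was not tested.

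The other members of this role were not called. Stat2 was at 5.97 FPKM in growing myoblasts and 6.21 in myotubes, and the authors' deposited table gave it a log2 fold change of 0.06 (SE 0.56). Irf3, which is present in resting cells and is activated by phosphorylation when sensors signal, was at 24.4 and 29.3 FPKM (log2 0.27, SE 0.29, authors' deposited table). Irf2, an antagonist of Irf1, was at 9.01 and 5.20 FPKM, and Irf7, which amplifies interferon production, at 4.66 and 2.28. Irf3 and Irf7 each share a locus with a gene called lower in the authors' deposited table, Bcl2l12 (14.8 and 4.56 FPKM) and Phrf1 (57.7 and 31.0). Whether the change of Irf9 differed from that of Stat2 was not tested.

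RNA sensors were low and neither tested sensor was called. Ddx58, which encodes RIG-I, was at 3.75 FPKM in growing myoblasts and 0.973 in myotubes, with a log2 fold change of -1.95, an SE of 0.89 and q = 0.0978 in the authors' deposited table. Ifih1, which encodes MDA5, was at 1.33 and 0.580 FPKM with an SE of 1.63, so that its direction was within error. Rsad2, the antiviral enzyme viperin, and Parp9 were the other tested members with an SE above 1.

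Of 10 tested effectors and modifiers 2 fell (20%), near the 17.3% of all tested genes called lower, and after centring 1 of 10 was lower, beside 10.2%. Ifit1, which binds viral RNA lacking the host cap mark (ENSMUSG00000034459, chromosome 19 from 34715361 to 34724499), was at 4.76 FPKM in growing myoblasts and 1.12 in myotubes, a log2 fold change of -2.09 (SE 0.76, q = 0.0279) in the authors' deposited table. Its neighbours on chromosome 19 had other values. Ifit2 was at 6.21 and 7.42 FPKM (log2 0.26, SE 0.57), and Ifit3 was at 0.535 and 1.22 FPKM (log2 1.19, SE 0.82), neither called in the authors' deposited table. The Ifit genes are related in sequence and the sources used here do not say how reads that match several of them were handled, so their separation is uncertain.

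Parp9, an ADP-ribosyltransferase family gene that acts with the ubiquitin ligase Dtx3l (ENSMUSG00000022906, chromosome 16 from 35926597 to 36037217), had the lowest fold change of the members. It was at 1.53 FPKM in growing myoblasts and 0.107 in myotubes, with a log2 fold change of -3.84 (SE 1.08, q = 0.00313) in the authors' deposited table. On the scale of log2(FPKM + 1) its difference was -1.19. The table placed it in a merged locus with Kpna1, at 40.5 and 103 FPKM (higher by the call of the authors' deposited table), with Gm15564, at 270.3 and 225 FPKM and not called, and with the untested Dtx3l, at 0.772 and 0.252 FPKM.

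The other 8 tested effectors were not called. Isg15 was at 10.1 and 4.82 FPKM (log2 -1.06, SE 0.78), Bst2 at 9.44 and 5.64, and Ifi35, which binds the interferon-induced protein Nmi, at 15.0 and 8.38 FPKM (log2 fold change -0.84 with SE 0.43 and q = 0.156) in the authors' deposited table. Oasl2, of the oligoadenylate synthetase family, was at 3.00 and 1.29 FPKM and Rsad2 at 1.56 and 0.714. Xaf1, a pro-apoptotic interferon target, was at 5.00 and 4.84 FPKM (log2 -0.05, SE 0.67), a value that turned to 0.37 after centring. The median SE of the 10 tested effectors was 0.78 on the log2 scale, so a 2-fold difference lay within 2 SE for most of them. Trim25, whose test failed, was at 20.9 and 11.7 FPKM. The identifier that a name table of another build gives for Ifi27 is listed under the symbol Ifi27l1, at 75.3 and 76.9 FPKM, and was not counted among the members.

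Among antigen presentation genes, 3 of 6 fell by the calls of the authors' deposited table and also after centring. Over all tested genes 17.3% were called lower, and 10.2% after centring. All 6 deposited values were lower in myotubes, as were those of 10684 of the 15966 tested genes. Tap1 (ENSMUSG00000037321, chromosome 17 from 34318932 to 34334170) was at 67.9 FPKM in growing myoblasts and 5.84 in myotubes, 11.6-fold lower. The authors' deposited table gave it a log2 fold change of -3.54 (SE 0.41, q listed as 0). Tap2 (ENSMUSG00000024339, chromosome 17 from 34334666 to 34353266) was at 213 and 45.0 FPKM, a log2 fold change of -2.25 (SE 0.41, q = 1.63e-06) in the authors' deposited table. Tapbp (ENSMUSG00000024308, chromosome 17 from 34052844 to 34066235) was at 48.2 and 18.8 FPKM, a log2 fold change of -1.36 (SE 0.37, q = 0.00183) in the authors' deposited table. The transporter subunits, whose products work as a pair, thus stood at 67.9 and 213 FPKM in myoblasts and at 5.84 and 45.0 in myotubes.

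The class I molecule itself was not called. B2m was at 183 FPKM in growing myoblasts and 76.6 in myotubes, with a log2 fold change of -1.26, an SE of 0.65 and q = 0.158 in the authors' deposited table. H2-K1 was at 33.0 and 21.9 FPKM (log2 fold change -0.59 with SE 0.36 and q = 0.253) and H2-D1 at 11.8 and 10.5 FPKM (log2 fold change -0.17 with SE 0.54 and q = 0.869) in the authors' deposited table. H2-D1 turned to 0.24 after centring. The heavy chain genes are related in sequence and polymorphic, so their FPKM can depend on how reads were shared and on the match of the mice to the reference. Both are unstated, so these values are uncertain. The difference in change between the transporter genes and the heavy chain genes was not tested.

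**Figure D4:**
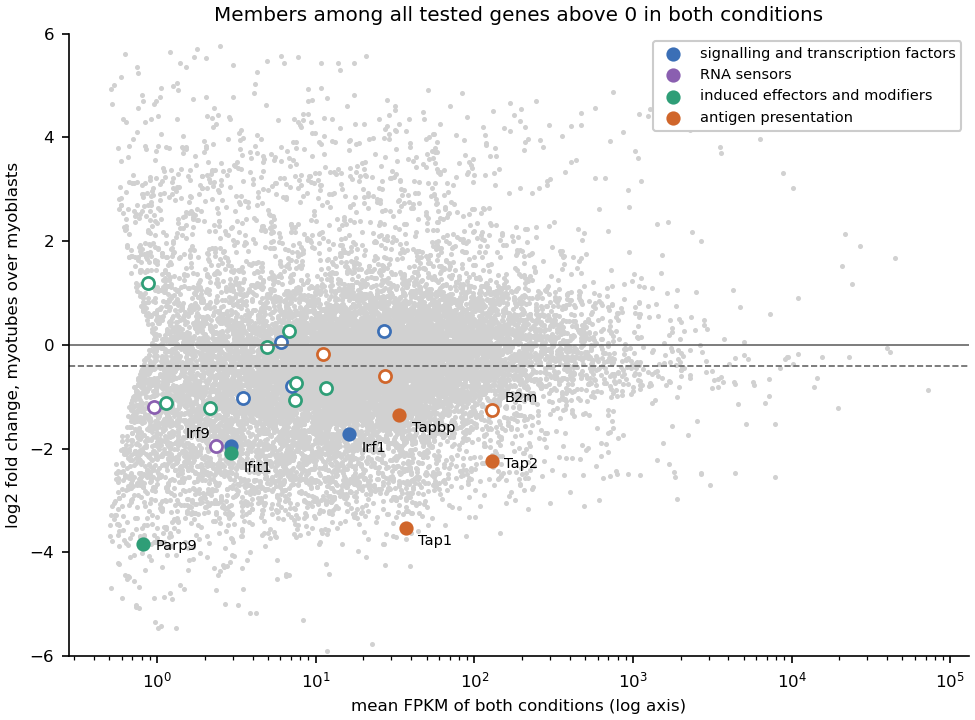
Mean FPKM of both conditions (horizontal, logarithmic) against log2 fold change of myotubes over myoblasts for 15416 tested genes above 0 in both conditions (grey) and the 24 tested members (coloured by role, filled where called by the authors). The solid line is 0, the dashed line the median of -0.41, and 22 genes beyond 6 in either direction, no member among them, are outside the axis. Tap1 at -3.54 and Tap2 at -2.25 lie below the dashed line. Their rank among genes of like abundance was not computed.

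The other genes of the pathway were taken from a list of 75 symbols in 7 groups, of which 74 were found, in 76 rows. By the calls of the authors' deposited table, 22 of 51 tested rows fell and 1, Stat3, rose, where 17.3% of all tested genes were called lower and 6.52% higher. After centring, 12 of these 22 were still lower, and Stat3 and Igtp were higher, beside 10.2% and 9.94% of all tested genes. The same shares stand beside the counts by group that follow. Their median log2 ratio of FPKM + 1 was -1.02, beside -0.37 for all genes. These counts describe the list and were not tested against other lists.

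None of the 6 interferon genes on the list had a value above 0. Ifnb1, Ifna2, Ifna4, Ifng, Ifnk and Ifne were listed at 0 FPKM in both conditions. Interferon receptors were present in both. Ifnar1 was at 31.3 and 14.9 FPKM, Ifnar2 at 20.8 and 23.8, and Ifngr2 at 27.7 and 41.6, none of them called. Ifngr1, the ligand-binding chain for interferon gamma, fell from 24.8 to 10.6 FPKM (log2 fold change -1.22 with SE 0.48 and q = 0.0453) in the authors' deposited table and lost that call after centring.

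Of the receptor kinases, Jak1 was at 44.8 and 35.9 FPKM, Tyk2 at 7.76 and 8.72 and Jak2 at 9.36 and 3.58, none called. Stat3, the factor of the interleukin-6 family, rose from 45.8 to 115 FPKM (log2 fold change 1.33 with SE 0.33 and q = 0.000707) in the authors' deposited table. Socs1, the feedback inhibitor of Jak kinases, fell from 8.62 to 2.04 FPKM in the authors' deposited table and was not called after centring.

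Sensing and adaptor genes had 4 of 7 tested rows called lower in the authors' deposited table, of which Tmem173 stayed called after centring. Tmem173, which encodes the adaptor STING, fell from 21.5 to 4.99 FPKM (log2 fold change -2.11 with SE 0.58 and q = 0.00215) in the authors' deposited table. By the same calls Tlr3, the endosomal receptor of double-stranded RNA, fell from 1.32 to 0.316 FPKM, the kinase gene Ikbke from 5.37 to 1.21 and the adaptor gene Traf3 from 24.7 to 11.8. The row whose identifier now belongs to the DNA sensor gene Cgas, listed under E330016A19Rik and so outside these counts, was at 2.63 and 0.634 FPKM and was called lower in the authors' deposited table.

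Other interferon-induced genes had 10 of 18 tested rows called lower in the authors' deposited table and 7 after centring, with 12 rows untested. Pml, the organizer of nuclear bodies, fell from 162 to 36.2 FPKM (log2 fold change -2.16 with SE 0.32 and q = 2.03e-09), and Ifitm3, which blocks viral entry at endosomes, from 245 to 55.3 FPKM (log2 fold change -2.15 with SE 0.66 and q = 0.00815) in the authors' deposited table. The ubiquitin ligase family gene Herc6 fell from 1.72 to 0.0974 FPKM and Lgals3bp from 11.6 to 1.27 in the authors' deposited table. Samd9l (2.87 to 0.328), Rtp4 (5.20 to 0.794) and the RNA-editing enzyme gene Adar (15.9 to 4.76) completed the 7. Eif2ak2, which encodes the kinase PKR, fell from 9.47 to 2.88 FPKM, Ifitm1 from 10.3 to 2.29 and Gbp6 from 7.12 to 1.58 in the authors' deposited table, and these 3 lost their call after centring. Igtp, an immunity-related GTPase, was at 0.660 and 2.10 FPKM and was called only after centring.

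Partners of class I antigen presentation had 6 of 13 tested rows called lower in the authors' deposited table and 4 after centring. All 13 values were lower in myotubes, as were those of 10684 of the 15966 tested genes. Psmb8, a catalytic subunit of the immunoproteasome that shares the Tap2 locus, fell from 31.8 to 3.20 FPKM (log2 fold change -3.31 with SE 0.60 and q = 8.77e-07) in the authors' deposited table. Psmb9, which shares the Tap1 locus, had 2 rows, at 6.35 and 0.541 FPKM and at 21.3 and 5.23 FPKM, both called lower in the authors' deposited table. The proteasome activator gene Psme1 fell from 58.8 to 20.3 FPKM and the peptide trimming enzyme gene Erap1 from 3.40 to 0.756 in the authors' deposited table. Pdia3, an oxidoreductase of the peptide-loading complex, fell from 553 to 264 FPKM there, and it and the lower of the Psmb9 rows lost the call after centring. With the 6 members, 9 of 19 tested class I rows fell by the calls of the authors' deposited table, and 7 were lower after centring. Psmb9 counts as 2 of the 9, and of the 9 only Erap1 shares its locus with no other tested gene. The way reads were divided in the shared loci was not tested, so these are not separate falls with certainty.

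MHC class II genes, which professional antigen-presenting cells express, were below 1 FPKM in both conditions. All 6 rows, for Ciita (2 rows), H2-Aa, H2-Ab1, H2-Eb1 and Cd74, were untested. Their highest value was 0.431 FPKM, for H2-Ab1 in myoblasts.

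**Figure D5:**
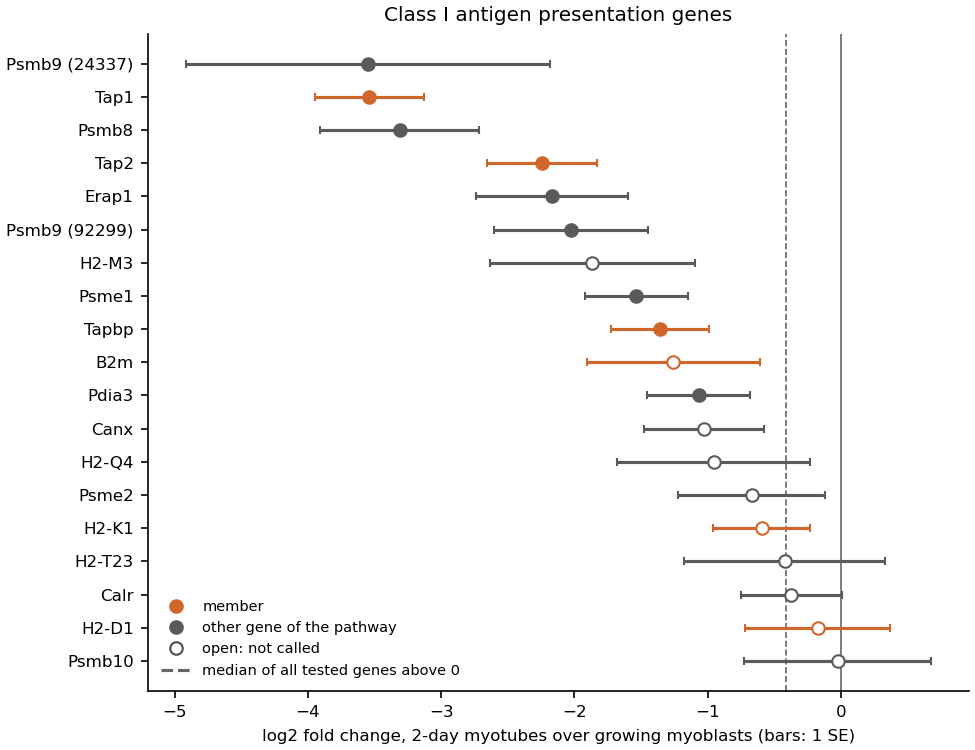
Log2 fold change, 2-day myotubes over growing myoblasts, of 19 tested rows of class I antigen presentation, with bars of 1 SE implied by the authors' test. Orange points are members, grey points other genes of the pathway, filled points were called by the authors, and the dashed line is the median of all tested genes above 0 in both conditions. The 2 Psmb9 rows carry the end of their identifiers. Tap1, Psmb8 and the Psmb9 row at -3.55 lie farthest to the left, the other Psmb9 row lies at -2.03, and H2-D1 and Psmb10 nearest to 0.

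Promoter letters were set beside these changes. Of 8 tested members with ISRE letters, 1 was called lower (Ifit1) and 6 had lower values in myotubes, with log2 fold changes from -2.09 to 1.19 and a median of -0.93. Of 14 tested members whose windows lacked them, 4 were called lower and 12 had lower values, with a median of -1.11. Over all 15966 tested genes, 17.3% were called lower and 10684 had lower values. Ifit1 and Ifit3, each printed above with a pair of ISRE matches, had log2 fold changes of -2.09 and 1.19 in the authors' deposited table. Tap2 and Parp9, both called lower, had no promoter window and so were in neither set. The difference between the sets with and without ISRE letters was not tested.

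MyoD peaks were examined last. A peak summit lay in the locus or within 10 kb for 10 of 24 tested members (41.7%) and for 38.8% of all tested genes. Loci of all tested genes were longer (median 26380 bp against 15270 bp). The exact 95% Clopper-Pearson interval of the member share was 22.1 to 63.4%, counting error only. It takes the members of a chosen list as independent draws, so it is no test against all genes. Of the 7 members called lower, Tap2 and Tapbp had a summit in the locus or within 10 kb, and of the 17 tested members not called, 8 had. The 22 distinct peaks near any member had a median of 14 tags, equal to that of all 10756 peaks, and 5 of them had a false discovery rate of at most 5% by the authors' peak caller. The authors' caller gave tags, fold enrichment and false discovery rate peak by peak.

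The peak with the most tags was at chromosome 7 from 52239536 to 52240307 (mm9), 2448 bp outside the locus of Irf3, with 52 tags and 13.3-fold enrichment. The highest enrichment was at Rsad2, on chromosome 12 from 27141149 to 27141579, where 12 tags gave 46.2-fold enrichment, with a summit 21 bp inside the 5′ end of the locus. This peak exceeded 99.0% of the list in enrichment, while Rsad2 RNA in myotubes was listed at 0.714 FPKM. H2-D1 held a peak with its summit 374 bp inside its 5′ end (chromosome 17 from 35399709 to 35400193, 14 tags, 19.3-fold), and Stat2 had a summit 188 bp before its locus (chromosome 10 from 127707137 to 127707727, 18 tags, 19.2-fold).

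At the antigen presentation loci, a peak on chromosome 17 from 34347359 to 34348040 with 38 tags and 13.0-fold enrichment lay inside the locus shared by Tap2 and Psmb8, beside a second with 13 tags. Its false discovery rate was 5.01% by the authors' caller. Tapbp held a peak of 10 tags, in a locus shared with Zbtb22, which was at 25.2 and 34.5 FPKM and not called. B2m had a peak of 30 tags, 1742 bp outside a locus that also holds the untested genes Patl2 and Trim69. Which gene of a shared locus a peak belongs to was not tested. The loci of Tap1, Irf1, Irf9, Ifit1 and Parp9 held no summit within 10 kb. MyoD was mapped in myotubes only, so occupancy in myoblasts was not compared.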

How the data were processed

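The deposited Cuffdiff table gives FPKM, with a single value for each gene in each condition; Cuffdiff, CASAVA 1.7.0 and build mm9 are named in the submitters' processing notes. The sources used here do not give the aligner, annotation, Cuffdiff version or normalization, nor how the duplicates in the labels' protocol were combined. Each p-value and q-value is the authors', and called genes had a q of at most 0.05. The SE is the deposited log2 fold change over the deposited test statistic, as a size. Centring subtracted the median log2 fold change, took p from the SE and applied the Benjamini-Hochberg method over all 15966 tested genes; genes at 0 in a condition kept the authors' p. This step was tested on simulated data built with the same SE, in which few genes changed, with as many rises as falls. That test did not check the SE itself or a table with more falls than rises. It also did not check a table in which as many genes change as here, where 23.9% of tested genes were called. Medians used log2(FPKM + 1) and genes with a mean of at least 1 FPKM.

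Peaks were called with MACS (version 1.3.7 in the submitters' processing notes) against a control at a p-value of 1.00e-05, per the file headers. Tags per peak are counts, fold enrichment is a ratio, the false discovery rate is a percent and each peak also has a p-value score, all per the file headers; that score was not used. A summit is the peak start plus its offset minus 1.

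Promoters are from RefSeq (GRCm38.p6), and their coordinates are separate from the mm9 ones. Members, lists and tests were chosen with earlier results of these data known. All members are named; other pathway genes are named where called, or as ligands, receptors and kinases. Some listed genes are not reported by name here. Python 3.11.15, pandas 2.3.3 and scipy 1.17.1 were used. A second copy of the expression table was identical and not used.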

Additional observations from a re-analysis of the deposited data

How the results depend on the processing

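Of 24 tested members 7 were called lower as deposited. That count was 5 after centring, 5 at a q of at most 0.01, 7 with at least a 2-fold change, 4 with a mean of at least 5 FPKM and 2 among members sharing no locus with another tested gene; the count called higher was 0 under each. Of the 16 tested members sharing no locus 12.5% were called lower, and of the 8 that share one 62.5%, beside 17.8% and 16.4% of all tested genes; the cause was not tested. For the pathway list, 22 lower and 1 higher became 12 and 2 after centring and 13 and 1 at a q of at most 0.01. Over all tested genes 17.3% were lower and 6.52% higher as deposited, and 10.2% and 9.94% after centring. No share over all tested genes was counted at a q of at most 0.01, at 2-fold or at 5 FPKM. The member and pathway counts at those settings therefore have no background here. The member median of -0.79 was -1.03 with a pseudocount of 0.1, -0.50 with 5, -0.42 after centring, -0.67 among members sharing no locus, -0.78 without the filter and -0.73 at a mean of at least 5 FPKM. Of 24 members, 20 kept direction and side of the threshold after centring, Irf9 (-1.54) and Ifit1 (-1.68) lost their call, and Xaf1 (0.37) and H2-D1 (0.24), both uncalled, reversed. Tested members with a MyoD peak were 10 within 10 kb (41.7%), 7 in the locus (29.2%) and 17 within 50 kb (70.8%). With peaks within 10 kb at a false discovery rate of at most 5% they were 3 (12.5%). Over all tested genes these shares were 38.8%, 27.5%, 59.9% and 11.7%, in the same order. No paired analysis was possible because each condition has 1 value, and for the same reason no replicate could be left out. With 1 value per condition and unknown depth, members below about 1 FPKM carry little information.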
